A study of Homo sapiens with 72 samples.

Results

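The effect of bryostatin on dimethylated lysine 4 of histone H3 (H3K4me2) was followed in Raji, an established Burkitt lymphoma B cell line. H3K4me2 was profiled by Cut&Tag, in which an antibody-tethered transposase cuts and tags the DNA beside the mark. The 3 untreated libraries, labelled "no treatment", were compared with 3 libraries from cells kept overnight in 1 nM bryostatin. No vehicle control is named in the labels, and the labels do not say whether the 3 libraries of a group came from separate cultures, so the spread between them may be technical. These are 6 of the 54 libraries of the series whose peak lists were at hand. The members of the comparison were all H3K4me2 peaks on chromosomes 1 to 22, X and Y, merged wherever peaks of any library overlapped by 1 bp, which gave 22117 regions. Of these, 9316 held a peak in all 6 libraries.

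Bryostatin is a macrocyclic lactone that occupies the diacylglycerol site of protein kinase C (PKC) and related C1-domain proteins. In B cells PKC signals through the ERK kinases to the AP-1 factors (JUN and FOS family dimers) and, through a separate branch, to NF-kB. H3K4me2 is found at active promoters, where it flanks the trimethylated form H3K4me3, and at enhancers, where H3K4me3 is low. Burkitt lymphoma cells resemble germinal centre B cells and carry rearranged immunoglobulin genes.

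Sequence from regions that gained a peak under bryostatin is shown first. The regions were chosen without regard to the sequence around their summits. The windows printed were picked among those that hold the AP-1 letters, and windows without them are not shown. Each line below gives reference sequence of hg38, plus strand, in lower case, with 60 bases on each side of the match nearest the summit. Capitals mark every match to TGANTCA, the AP-1 site, whose reverse complement has the same letters. The first 5 belong to regions where every treated library and no untreated library had a peak, and the last 2 are distal regions whose signal was higher in every treated library.
LCP2 intron, chr5:170297150-170297276: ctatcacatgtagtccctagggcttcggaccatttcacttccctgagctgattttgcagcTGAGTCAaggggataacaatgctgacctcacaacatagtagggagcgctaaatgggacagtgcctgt
CHSY1 intron, chr15:101199891-101200017: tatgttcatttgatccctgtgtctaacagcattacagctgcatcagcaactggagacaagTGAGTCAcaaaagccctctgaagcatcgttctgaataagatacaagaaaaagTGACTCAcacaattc
near PKM, chr15:72237491-72237617: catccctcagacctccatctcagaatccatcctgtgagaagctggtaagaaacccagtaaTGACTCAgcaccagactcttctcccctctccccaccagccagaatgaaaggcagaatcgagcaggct
GRK5 intron, chr10:119315682-119315808: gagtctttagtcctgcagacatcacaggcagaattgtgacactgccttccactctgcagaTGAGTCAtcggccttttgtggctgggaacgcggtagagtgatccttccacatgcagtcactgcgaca
near KCNN4, chr19:43784542-43784668: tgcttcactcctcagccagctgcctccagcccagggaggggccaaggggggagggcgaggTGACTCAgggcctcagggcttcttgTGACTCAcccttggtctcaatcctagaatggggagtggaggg
OGDH intron, chr7:44639309-44639435: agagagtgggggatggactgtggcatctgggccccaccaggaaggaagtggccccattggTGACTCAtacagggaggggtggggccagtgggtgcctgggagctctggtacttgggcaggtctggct
MGLL intron, chr3:127751258-127751384: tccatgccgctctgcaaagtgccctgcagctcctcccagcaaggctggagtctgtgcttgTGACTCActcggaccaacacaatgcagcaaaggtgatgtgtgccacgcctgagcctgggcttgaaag

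AP-1 letters stood in the 500 bp window around the summit of 10 of the 20 regions gained among all peaks (50%). They stood in 17 of the 50 regions gained when each library was cut to its 10464 strongest peaks (34%). The same letters were found in 2 of the 34 regions lost at equal numbers (5.88%), in 16.6% of all 22117 merged regions and in 19% of the 2251 regions called in exactly 3 libraries. Distal regions hold the letters more often than promoters, so the classes were also read apart. Among distal regions the share was 8 of 16 for those gained among all peaks and 8 of 24 for those gained at equal numbers, beside 24.9% of all 9682 distal regions. Among promoter regions it was 9 of 26 at equal numbers (34.6%), beside 10.1% of 12435. In 1000 bp windows the contrast narrowed for distal regions at equal numbers. The letters stood in 45.8% of those gained, in 41.7% of the 12 lost distal regions and in 37.4% of all distal regions. In the same windows the share was 56.2% of the 16 distal regions gained among all peaks. Among promoter regions gained at equal numbers it was 42.3%, beside 18.5% of all promoter regions. No test was made of these shares, and a match is a description of the sequence and not of a bound factor.

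The 9 other motifs searched on both strands were mostly rare. The cyclic AMP response element TGACGTCA was in 0 of the 24 distal regions gained at equal numbers and the NF-kB decamer was in 0 of them, beside 0.423% and 1.72% of all distal regions. Among the 26 gained promoter regions the NF-kB decamer stood in 2 (7.69%), against 0.885% of all promoter regions, and the MYC E-box CACGTG in 7 (26.9%), against 11.6%. The EBF1 decamer stood in 3 of the 24 gained distal regions (12.5%), against 2.74% of all distal regions. The ETS letters GAGGAAGT stood in 4 of the 24 (16.7%), against 9.09% of all distal regions, and in 8 of the 46 distal regions that were consistently lower (17.4%). The octamer ATGCAAAT, which binds POU2F1 and POU2F2 and is a standing part of immunoglobulin variable gene promoters, was in 4 of the 12 distal regions lost at equal numbers (33.3%), against 8.99% of all distal regions. Of these 4, the regions at IGKV2-29, IGLV5-45 and IGKV2OR2-7 lie at immunoglobulin variable segments and the fourth lies in MYBL2. Starts of such segments were not counted as gene starts, so regions at them can be classed as distal.

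Treated libraries were deeper, and that has to be read beside every result. The step between signal values gave 6.70 to 13.9 M mapped reads in the untreated and 15.6 to 18.8 M in the treated libraries, without overlap (exact permutation test, two-sided, p = 0.1, the smallest that 3 against 3 allows). Peaks numbered 19641, 10464 and 14644 in untreated replicates 1, 2 and 3, and 22540, 19556 and 12354 in the treated replicates, so these ranges overlapped. Untreated replicate 2 was the shallowest and its list was the shortest. The called length was 31.0 ± 13.1 Mb in the untreated and 55.0 ± 20.4 Mb in the treated libraries (SD, n = 3 each, exact permutation p = 0.2). Among the 10464 strongest peaks of each library, 83.3% ± 0.056 lay within 1 kb of a gene start in the untreated and 84.3% ± 0.139 in the treated libraries (SD, n = 3 each, exact permutation p = 0.1). Lineage genes matched the label: of 16 B cell identity genes 14 had a start peak in all 3 untreated libraries, while 10 of 12 T cell, monocyte and erythroid markers had none in any library and the other two, CSF1R and KLF1, went from 0 to 2 and from 1 to 3 libraries.

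For the 20 regions gained among all peaks (0.0904% of the merged regions), bryostatin libraries carried H3K4me2 at places where SEACR called nothing in untreated cells. Of these, 4 lay within 1 kb of a start and 16 were distal. No region was lost by the same rule. LCP2, which encodes the adaptor SLP-76 of immune receptor signalling, was marked at 2 places. Its start region (chr5:170296251-170299060) had total signals (RPKM summed over the bases of the peak, in RPKM kb) of 321, 450 and 335 in the treated libraries, and a second region 5310 bp from the start (chr5:170301761-170303960) had 122, 137 and 225 RPKM kb. All 6 of these values stand against no called peak in untreated replicates 1, 2 and 3.

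Gained regions in introns included one 10348 bp from the start of CHSY1, a chondroitin synthase (399, 440 and 252 RPKM kb), and one 108164 bp from the start of GRK5, a kinase of G protein-coupled receptors (294, 305 and 276 RPKM kb). The region with the largest mean lay in an intron of the long non-coding RNA gene ENSG00000249738, with IL12B as the nearest coding start at 128482 bp, and had 590, 540 and 219 RPKM kb. Intergenic gains lay 5746 bp from PKM, the pyruvate kinase gene (371, 389 and 234 RPKM kb), and 3629 bp from KCNN4, a calcium-activated potassium channel of lymphocytes (189, 265 and 195 RPKM kb). An intron of ALOX5, the 5-lipoxygenase gene, held the region with the lowest value of the 20, at 98.3 RPKM kb in treated replicate 1.

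The height of a missing peak is unknown, and only a floor can be given. The weakest peak listed for untreated replicate 2 had a total of 201 RPKM kb, the highest floor of the untreated libraries. In 9 of the 20 gained regions all 3 treated values were above it, among them the LCP2 start, CHSY1, PKM and GRK5. In the other 11 at least 1 treated value was below that floor, so an equally strong peak could have gone unlisted in untreated replicate 2. These values are not scaled between libraries. The median region called in all 6 libraries had 450 RPKM kb in untreated replicate 2. It had 735, 708 and 575 RPKM kb in treated replicates 1, 2 and 3. Relative to the library's median, the floor of untreated replicate 2 was 0.447. On that scale the LCP2 start, CHSY1, PKM and GRK5 each had at least 1 treated value below it, so they are not clear of the floor either. Leaving out treated replicate 3, the library with the fewest treated peaks, raised the count of gained regions from 20 to 2964, and leaving out untreated replicate 1 or 3 raised it to 113 or 54.

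At equal numbers of peaks, 50 regions were gained (0.421% of 11886 merged at that number) and 34 lost (0.286%). Here a region counts as gained when all 3 treated libraries and no untreated library had a peak among their strongest 10464. In 47 of the 50 an untreated library had a weaker peak below that limit, so most are not new peaks. Values here are sums over all listed peaks of a library in the region. MIR23AHG, the host gene of the miR-23a cluster, had 412, 0 and 181 RPKM kb in untreated replicates 1, 2 and 3, where 0 means no called peak. In treated replicates 1, 2 and 3 it had 657, 758 and 527 RPKM kb, all above the highest untreated value. The 412 exceeds the limit of untreated replicate 1, so it sums several peaks that each missed that limit. Whether such gains come from a signal split into more peaks in untreated libraries was not tested.

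SLAMF7, a surface receptor of lymphocytes and NK cells, had a peak of 211 RPKM kb in untreated replicate 1 and none in the other two, against 789, 718 and 252 RPKM kb under bryostatin. A distal region 67265 bp from LINGO1 went from 193, 0 and 217 RPKM kb to 621, 594 and 488 RPKM kb, and an intron of KCNMA1, a potassium channel gene, from 173, 0 and 287 to 539, 611 and 406 RPKM kb. UST-AS2 was listed at 91.9 RPKM kb in untreated replicate 1 alone and at 479, 512 and 455 RPKM kb in the treated libraries. OCSTAMP, which acts in the fusion of osteoclast precursors, had 143, 0 and 255 RPKM kb untreated and 502, 555 and 354 RPKM kb treated. The limit of 10464 is the whole list of untreated replicate 2, so that library has no peak at any gained region by construction, and the rule leaves little room for the groups to overlap.

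Of the other gains at equal numbers, 3 were picked after their values were seen. The distal region 5014 bp from S1PR2, the sphingosine receptor that confines B cells to the germinal centre, had 198 RPKM kb in untreated replicate 1, no peak in replicates 2 and 3, and 440, 509 and 246 RPKM kb in the treated libraries. At P2RY8, a receptor with a similar confining role, an intronic region had 185, 0 and 254 RPKM kb untreated against 400, 429 and 259 RPKM kb treated. ETS1 had a distal region 164705 bp away with 167, 0 and 297 against 347, 503 and 287 RPKM kb, where the groups overlapped.

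In 31 of the 34 lost regions all 3 treated libraries still had a peak below the limit, a count that cannot arise among the gained ones because untreated replicate 2 has no peak below it. The limit itself differed, from 201 to 302 RPKM kb in untreated and from 245 to 327 RPKM kb in treated libraries, so a peak of the same total can pass in one library and miss in another. Of the 34, 32 held a peak in all 6 libraries when all peaks were merged, and 30 of those were lower in every treated library after centring, which restates the rank rule on the same totals. LINC01993, a long non-coding RNA gene, had 577, 326 and 859 RPKM kb untreated against 197, 315 and 242 RPKM kb treated. At IGKV2-29 the values were 532, 224 and 553 against 270, 268 and 185 RPKM kb, which overlap before centring. LRRC26, an auxiliary subunit of BK potassium channels, had 354, 533 and 381 against 169, 295 and 230 RPKM kb. GRIN1, a glutamate receptor subunit gene, had 381, 344 and 438 against 218, 320 and 193 RPKM kb. Among the lost regions 4 of 34, and among the gained ones 0 of 50, lay at immunoglobulin segments, beside 112 of all 22117 merged regions (0.506%).

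The 9316 regions called in all 6 libraries allow a comparison of signal level. Total signal was divided by the library's median over these regions, and that ratio is called the relative signal. On its log2 scale limma with Benjamini-Hochberg adjustment called 0 regions (0%), and the lowest adjusted p was 0.0596. At an unadjusted p under 0.05 there were 311 higher and 315 lower of the 9316 regions. No level change in a single region therefore passed the test, and what follows describes regions in which every treated library lay on one side of every untreated one. In total signal alone that held for 463 higher (4.97%) and 534 lower regions (5.73%). Demanding it in maximum signal as well left 83 consistently higher regions (0.891%) and 138 consistently lower ones (1.48%).

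**Figure D1:**
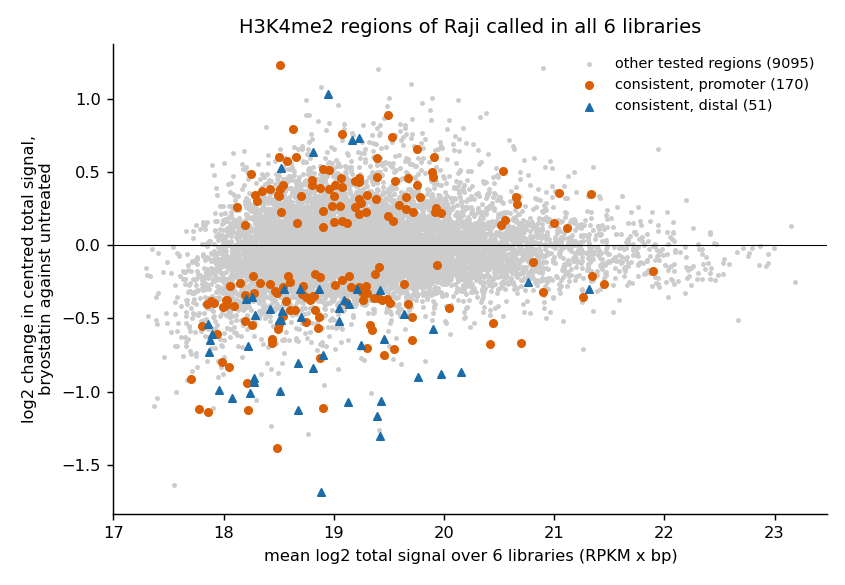
Log2 change in centred total signal, bryostatin against untreated (y axis), against mean log2 total signal (x axis) for the 9316 regions called in all 6 libraries. Grey points are the other regions, circles the 170 consistent promoter regions and triangles the 51 consistent distal regions, of which 46 lie below 0.

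Consistent losses were unevenly placed. Of 1027 tested distal regions 46 were consistently lower (4.48%) and 5 consistently higher (0.487%). Of 8289 promoter regions 92 were lower (1.11%) and 78 higher (0.941%). Only starts of protein-coding and long non-coding RNA genes were counted. Regions at immunoglobulin variable segments, such as IGHV4-59 and IGKV2-29, are therefore among the distal losses even where they lie at a segment's own start. The distal share of lower regions exceeded the promoter share in each quintile of signal: 4.91% against 2.44% in the weakest and 3.12% against 0.566% in the strongest. It also exceeded it under each of the 15 other settings that could change it. The imbalance between distal losses and gains depended on the demand for a peak in all 6 libraries. With a peak in at least 2 libraries of each group, 217 of 2907 distal regions were lower and 139 higher, and without untreated replicate 2 the counts were 94 and 58 of 1681. None of the 50 regions gained at equal numbers was among the 9316 tested, while 32 of the 34 lost ones were. Intergenic regions were lower in 24 of 459 and intronic ones in 20 of 524. The median log2 change was -0.09 over distal and -0.02 over promoter regions, so the bulk of both classes moved little.

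**Figure D2:**
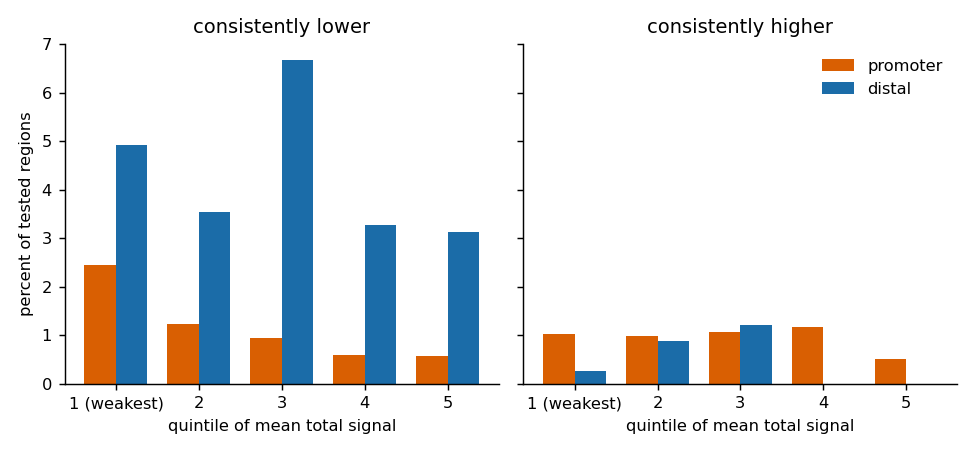
Percent of tested regions that were consistently lower (left) or higher (right), for promoter and distal regions in each quintile of mean total signal (x axis, 1 weakest, 5 strongest). Distal bars exceed promoter bars in all 5 quintiles on the left and in 1 of 5 on the right.

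The distal losses named here are the largest among regions chosen because the groups do not overlap, so a change beyond the spread follows from the choice. The intergenic region 76374 bp from CST7, the cystatin F gene (chr20:24870681-24874190), had a relative signal of 1.25, 1.56 and 1.44 in untreated replicates 1, 2 and 3 and of 0.268, 0.489 and 0.641 in the treated ones. The log2 change was -1.69 ± 0.27 (SE; limma adjusted p = 0.0596), the largest decrease of all tested regions. An intron of ALPL, alkaline phosphatase (chr1:21513201-21520100), had 1.56, 1.58 and 1.90 untreated and 0.573, 0.831 and 0.873 treated (log2 change -1.17 ± 0.18, limma adjusted p = 0.0596). In C10orf105 the intronic region (chr10:71725901-71729680) went from 1.63, 1.53 and 1.82 to 0.833, 0.712 and 0.834 (-1.07 ± 0.15, limma adjusted p = 0.0596). Its 3 treated values lay close together at about the same distance below the untreated ones.

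BICD2, a dynein adaptor gene, held an intronic region with 1.72, 2.04 and 1.64 untreated and 0.415, 0.850 and 1.07 treated. In ENSG00000290180 the values were 1.04, 1.09 and 0.895 against 0.328, 0.626 and 0.477. None of these 5 regions had an H3K4me3 peak in 3 libraries of either group. REH, a pre-B acute lymphoblastic leukemia line profiled in the same series, had a peak near CST7 in all 6 of its libraries, where the log2 change was -0.11 ± 0.16, and none at ALPL, BICD2, C10orf105 or ENSG00000290180.

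Immunoglobulin variable segments recurred among the losses and were counted after that was seen. Of 42 tested regions at immunoglobulin segments, 7 were consistently lower (16.7%, beside 1.48% of all tested and 4.48% of tested distal regions) and 0 higher. In 32 the change was below 0 (76.2%, beside 55.1% of all tested regions), and the median log2 change of the 42 was -0.28 beside -0.03 over all tested regions. The median was -0.09 over tested distal regions and -0.22 over distal regions in the weakest quintile of signal, where IGHV4-59 and IGKV2-29 fall. The region at IGKV2OR2-7 and IGKV2OR2-8, orphan kappa segments outside the kappa locus, went from 1.24, 1.31 and 1.50 to 0.663, 0.686 and 0.580 (-1.07 ± 0.15, limma adjusted p = 0.0596). IGHV4-59 had 0.655, 0.766 and 0.535 against 0.241, 0.299 and 0.428, and IGKV2-29 had 0.908, 0.497 and 0.803 against 0.367, 0.378 and 0.321. The region over IGLV6-57 and IGLVI-56 had a log2 change of -0.90 ± 0.15 (limma adjusted p = 0.0600). The octamer letters stood in 13 of the 42 windows (31%) and in 4 of the 7 that were consistently lower. Segments of these families are near-identical in sequence, so reads may be shared among copies and each position is uncertain.

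Of the distal regions with a peak in all 6 libraries, 5 were consistently higher. The region 10433 bp from JUND, an AP-1 subunit gene (chr19:18289621-18295040), had relative signals of 0.404, 0.606 and 0.772 untreated and 0.947, 1.37 and 1.26 treated (log2 change 1.04 ± 0.23, limma adjusted p = 0.253). Intronic regions lay in MGLL, monoacylglycerol lipase (0.616, 0.601 and 0.578 against 0.925, 1.04 and 0.843), and in OGDH (0.734, 0.812 and 0.685 against 1.35, 1.53 and 0.890). SWAP70, a B cell adaptor of membrane ruffling and class switching, held one with 0.869, 0.500 and 1.07 against 1.29, 1.48 and 1.12, and its fitted change was -0.09 with mapped reads as a covariate. HIVEP2, a zinc finger factor that binds kappa-B-like enhancers, held one with 0.523, 0.516 and 0.485 against 0.815, 0.740 and 0.652. AP-1 letters stood in 2 of these 5 windows, those of MGLL and OGDH printed above.

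Promoter regions that were consistently higher were led by BCAN-AS2, a long non-coding RNA gene 8226 bp from BCAN (chr1:156659381-156666220). Its relative signal was 0.339, 0.472 and 0.386 untreated and 0.894, 1.06 and 0.843 treated, a log2 change of 1.23 ± 0.19 (limma adjusted p = 0.0596). RFX5 encodes a subunit of the RFX complex that binds the promoters of major histocompatibility complex (MHC) class II genes. Its region (chr1:151339771-151348840) went from 0.889, 0.759 and 1.01 to 1.56, 1.69 and 1.64 (0.89 ± 0.15, limma adjusted p = 0.0879). ANXA6, a membrane-binding annexin, went from 0.420, 0.499 and 0.593 to 0.739, 0.971 and 0.907. STIP1, an HSP70 and HSP90 co-chaperone, went from 1.12, 1.04 and 1.27 to 1.74, 1.81 and 1.86.

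The shared promoter region of NUP62, IL4I1 and ATF5 had 0.825, 0.962 and 1.07 untreated and 1.49, 1.74 and 1.54 treated. A separate region at another start of IL4I1, an L-amino acid oxidase of B cells and macrophages, had 2.07, 2.32 and 1.84 against 2.55, 3.27 and 3.03. PARVG, an integrin-linked actin adaptor, had 1.03, 1.17 and 1.02 against 1.32, 1.45 and 1.61. The last pair was picked after the values were seen.

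Consistently higher regions were longer, and length entered their choice, since total signal is summed over the called bases. Their median called length was 2393 bp untreated and 4037 bp treated, a median ratio of 1.62, beside 1.43 over all tested regions and 1.28 over the consistently lower ones. Signal per called base, computed from the same totals, was above the untreated level in 67 of the 83, beside 4985 of all 9316 tested regions. In the remaining 16, among them ANXA6 (log2 change per called base -0.74), NUP62 (-0.32) and OGDH (-0.41), the higher total came with more called bases and a lower mean. Among the 138 lower regions signal per base was below the untreated level in 119, beside 4331 of all tested regions. With mapped reads as a covariate the fitted change kept its direction in 78 of the 83 higher regions and in 131 of the 138 lower ones, among these all 46 distal losses. These regions were chosen on the same totals, so the kept directions follow in part from the choice. Mapped reads did not overlap between the groups, so the covariate cannot separate depth from treatment.

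Promoter losses were led by LINC01993 (0.985, 0.724 and 1.25 against 0.268, 0.445 and 0.420; log2 change -1.38 ± 0.25, limma adjusted p = 0.115). ALDH3B1, an aldehyde dehydrogenase, went from 1.07, 1.54 and 0.980 to 0.503, 0.628 and 0.502 (-1.11 ± 0.20, limma adjusted p = 0.102). SEMA3G, a secreted semaphorin, had 0.440, 0.805 and 0.525 against 0.161, 0.298 and 0.366, and ITM2C had 0.428, 0.574 and 0.437 against 0.189, 0.268 and 0.319. LRRC26 and GRIN1, named among the lost regions, belonged to the same set, with log2 changes of -1.12 and -0.94. Most of these starts had little or no H3K4me3: of the 8 promoter losses with the largest change, none had an H3K4me3 peak in more than 1 library of a group.

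H3K4me3 in the same cell line is an independent measure, since its 6 libraries did not enter the choice. At the 68 consistently higher promoter regions that were also tested for H3K4me3, 47 had a change above 0, with a median of 0.04, while at the 52 lower ones 39 had a change below 0, with a median of -0.09. Over all 7300 promoter regions tested for both marks, 3380 were above 0 and the median was -0.01. None of the 120 passed the adjusted threshold for H3K4me3, which 0.155% of all 9040 regions tested for that mark did in the upward direction (limma). The largest increase was at IL4I1 (1.44 ± 0.41, limma adjusted p = 0.523), and PARVG followed at 0.71 ± 0.17 (limma adjusted p = 0.356). At ENSG00000223989, a long non-coding RNA gene on chromosome 1, H3K4me2 was lower (2.59, 2.80 and 2.99 against 1.53, 1.93 and 2.44) and the H3K4me3 change was -1.58 ± 0.26 (limma adjusted p = 0.0759).

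**Figure D3:**
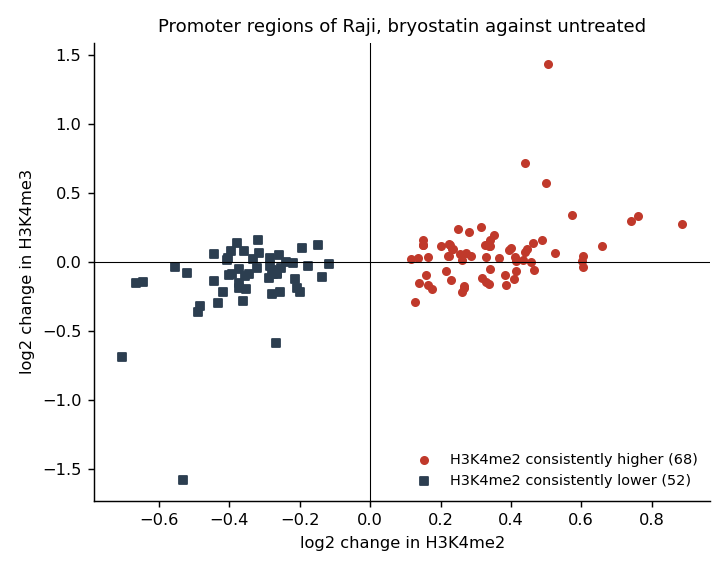
Log2 change in H3K4me3 (y axis) against log2 change in H3K4me2 (x axis) at consistent promoter regions of Raji tested for both marks, each point 1 region. Of 68 regions higher in H3K4me2, 47 lie above 0 on the y axis, and of 52 lower ones 39 lie below 0.

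REH gave a second independent view of H3K4me2 at these places, and directions there were mixed. Of the 67 consistently higher promoter regions tested in REH, 35 had a change above 0 and 32 below, with a median of 0.01, and of 61 consistently lower ones 37 were below 0, with a median of -0.02 that all promoter regions share. Of 13 distal losses 8 were below 0 and 5 above, and the HIVEP2 region, higher in Raji, was lower in every treated REH library (-0.24 ± 0.09, limma adjusted p = 0.357). Of 10791 regions tested in REH, 153 were higher at an adjusted p under 0.05 (1.42%, limma). Among them were 3 of the 67 and, opposite to the direction in Raji, 1 of the 61. BCAN-AS2 changed by 1.23 ± 0.17 in REH (limma adjusted p = 0.00150), beside 1.23 ± 0.19 in Raji. PARVG rose by 0.49 ± 0.08 (limma adjusted p = 0.00969), and CCL3L3, a chemokine gene of a multicopy family whose reads may be shared among copies, by 0.65 ± 0.12 (limma adjusted p = 0.0173). Of the 50 regions gained in Raji at equal numbers, 18 were tested in REH, 14 of them with a change above 0 and a median of 0.15, and 4 rose there: those near LINGO1 (0.90, adjusted p = 1.98e-04), at ENSG00000258623 (0.67, adjusted p = 0.00155), at ENSG00000258082 (0.77, adjusted p = 0.00315) and at RBPMS2 (0.47, adjusted p = 0.0272). Of 5 lost regions tested there, 4 had a change above 0, and 1 of them, at GSN, passed the threshold upward (0.39, limma adjusted p = 0.0323). SLC6A6, the 1 of the 61 lower promoter regions that passed upward, rose by 0.64 ± 0.08 in REH (limma adjusted p = 0.00101). LCP2 had a start peak in all 6 REH libraries, with a log2 change of 0.29 (limma adjusted p = 0.151).

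The response itself differed between the lines at 2 of 7267 regions called in all 12 libraries (0.0275%; limma interaction term, adjusted p = 0.0302 at both). At the start of SLC6A6, the taurine transporter (chr3:14422441-14435290), Raji changed by -0.21 and REH by 0.65. Relative signal was 3.88, 4.34 and 4.47 untreated and 3.46, 3.71 and 3.81 treated in Raji, and 1.30, 1.29 and 1.19 against 1.87, 2.05 and 2.00 in REH. At the long non-coding RNA gene ENSG00000273287 (chr22:45261301-45264470), Raji went from 0.845, 1.29 and 1.02 to 0.373, 0.459 and 0.442, and REH from 0.582, 0.561 and 0.501 to 0.779, 0.781 and 0.559.

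Pathway genes were read from 12 lists at their start regions, and none of the tested members passed the adjusted threshold. Members named without overlap between the groups, here and below, stand beside 4.97% of all tested regions that lay higher in every treated library and 5.73% that lay lower. Germinal centre and plasma cell regulators had the highest median log2 change, 0.37 over 11 tested genes, 10 of them above 0, beside -0.02 over all promoters. That direction rested on total signal: the median was 0.05 in maximum signal, and with mapped reads as a covariate it was -0.11, with 5 of 11 above 0. Of the 11, 3 lay higher in every treated library, as did 4.97% of all tested regions, namely S1PR2 (1.58, 1.39 and 1.79 against 1.92, 2.62 and 2.28; log2 change 0.51), XBP1 (0.37), the plasma cell factor, and POU2AF1 (0.39), the octamer coactivator. The S1PR2 region also holds a start of DNMT1, and in signal per called base XBP1 (-0.32) and POU2AF1 (-0.10) lay below 0. BCL6, the master repressor of the germinal centre programme, had the largest change of the list, 0.76 ± 0.40, with 1.54, 0.450 and 1.57 untreated and 2.01, 2.11 and 1.25 treated, and with mapped reads as a covariate its change was -0.47. Its groups overlapped, and the low value belonged to untreated replicate 2.

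MHC genes had a median of 0.22 over 18 tested members, with 16 above 0 and 3 higher in every treated library, against 4.97% of all tested regions; the median was 0.14 in maximum signal but -0.04 with mapped reads as a covariate. The one consistently higher region of the list was counted for CIITA, the master activator of MHC class II, at 3.56, 3.40 and 4.55 against 4.61, 4.78 and 5.19 (log2 change 0.35 ± 0.14, limma adjusted p = 0.718). That region (chr16:10936481-10951430) also holds starts of CLEC16A and DEXI, and its summit lay 4964 bp from a CLEC16A start and 8826 bp from the most downstream CIITA start, so the value cannot be credited to CIITA alone. HLA-E, which is read by NK cell receptors, had 1.22, 0.833 and 0.987 against 1.57, 1.73 and 2.03 (0.82 ± 0.17, limma adjusted p = 0.205), while its maximum signal changed by 0.07. HLA-F had 0.548, 0.828 and 0.728 against 0.853, 0.986 and 0.978. B2M, the shared light chain of class I, had 0.850, 0.668 and 0.580 against 1.02, 1.21 and 0.574, which overlap, in a region shared with PATL2. HLA genes resemble each other, and their reads may be shared.

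Adhesion and cytoskeleton genes had a median of 0.18 over 14 tested, and of 0.04 with that covariate. PLEK, pleckstrin, a major PKC substrate of blood cells, had 2.72, 1.07 and 3.13 untreated and 5.32, 6.78 and 3.11 treated (1.21 ± 0.36, limma adjusted p = 0.583), so that treated replicate 3 lay within the untreated range. EVL, an actin polymerisation factor, did not overlap (2.72, 1.85 and 2.43 against 3.28, 3.73 and 2.82), while DOCK10, a guanine nucleotide exchange factor, did (log2 change 0.41 ± 0.35).

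Lists of PKC itself and of genes downstream of it had medians on both sides of 0. Of 15 tested AP-1 and early response factors, 5 were above 0 and the median was -0.04. In total signal 2 of the 15 were higher in every treated library, beside 4.97% of all tested regions, and 3 were lower in every one, beside 5.73%. The higher ones were EGR2 (1.38, 1.20 and 0.992 against 1.69, 1.80 and 1.86) and BATF (0.555, 0.582 and 0.779 against 0.878, 0.894 and 0.832). The lower ones were JUN (-0.15), JUNB (-0.25) and FOSB (-0.20). BATF changed by -0.08 in maximum signal and in signal per called base, and JUN (0.29), JUNB (0.08) and FOSB (0.27) lay above 0 in signal per called base. EGR1 overlapped (0.25 ± 0.15). NF-kB genes had 11 of 12 above 0 with a median of 0.10, and BIRC3, an apoptosis inhibitor induced by NF-kB, had the largest change (1.20, 0.506 and 1.95 against 2.66, 1.95 and 1.73; 0.97 ± 0.37, limma adjusted p = 0.718). With mapped reads as a covariate that change was -0.35 and the median of the list -0.04, and in maximum signal the median was -0.07. NFKBIZ (0.50 ± 0.35) overlapped and TRAF1 (0.23 ± 0.12) did not. In the ERK feedback list the phosphatase DUSP10 did not overlap (2.59, 2.36 and 2.10 against 3.19, 3.48 and 2.64), and 2 of 6 tested members were above 0, with SPRED1 at -0.24 ± 0.18 and SPRED2 at -0.20 ± 0.14. The PKC and PKD kinases had a median of -0.10 over 9, with PRKCD, a PKC isoform, at 7.70, 9.30 and 9.21 against 5.63, 6.88 and 8.65, PRKCA at -0.24 ± 0.21 and PRKCH at 0.21 ± 0.14. Diacylglycerol signalling partners had a median of 0.09 over 13, where RASGRP2, a nucleotide exchange factor of RAP1, was lower in every treated library (4.86, 5.35 and 4.73 against 3.97, 3.55 and 4.58), and DGKD (0.32 ± 0.16) and RASGRP3 (0.26 ± 0.15) overlapped.

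B cell identity genes had a median of 0.09 over 14 in total signal but of -0.15 in maximum signal and -0.11 with mapped reads as a covariate. CR2, the complement receptor, had the largest change (0.66 ± 0.25; 1.04, 0.812 and 1.72 against 1.88, 2.17 and 1.39), with overlap, and a maximum signal that changed by -0.42. BLK, a SRC family kinase, did not overlap (0.36 ± 0.17). The region counted for VPREB3, a pre-B receptor chaperone, was consistently lower, but its summit lay 63 bp from a start of ZNF70 and 3234 bp from that of VPREB3 (5.19, 5.27 and 4.92 against 4.17, 3.85 and 4.81; -0.27 ± 0.12, limma adjusted p = 0.718). CD22, the surface antigen targeted in the study, had a higher total in each treated library (log2 change 0.36 ± 0.13, limma adjusted p = 0.710) and a maximum signal that changed by -0.08. Among ligands of innate immune receptors, with a median of 0.07 over 12 (-0.09 in maximum signal, -0.06 with the covariate), ULBP3, a ligand of the NK receptor NKG2D, was consistently lower (0.973, 0.954 and 0.892 against 0.579, 0.561 and 0.789; -0.56 ± 0.17, limma adjusted p = 0.601). CD48 (0.58 ± 0.34) overlapped and TNFRSF10A (0.42 ± 0.21) did not. Chemokine genes and their receptors had a median of 0.15 over 9 (-0.17 with the covariate), none of them without overlap between the groups, and CXCR4 led with 1.58, 1.24 and 1.83 against 2.00, 1.81 and 1.88, ahead of RGS13 (0.31 ± 0.41) and CCL4 (0.18 ± 0.20).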

How the data were processed

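Cut&Tag libraries of Raji H3K4me2 (3 untreated, 3 in 1 nM bryostatin) were compared, with Raji H3K4me3 and REH H3K4me2 libraries as independent measures. Per the labels and the methods, the authors trimmed reads with Trim Galore, aligned them to hg38 with Bowtie2, normalised coverage by RPKM and called stringent peaks with SEACR in each library; versions and the SEACR threshold are not given in the sources used here. The deposited signal values are RPKM summed over the bases of a peak and the maximum RPKM. Mapped reads were computed from the signal step of 1 read in 10 bp bins. Peaks overlapping by 1 bp were merged (GenomicRanges 1.54.1), and total signal of regions called in all 6 libraries was log2 transformed, centred on the library median and tested with limma 3.58.1 (eBayes with trend, adjusted p threshold 0.05, R 4.3.3), checked on simulated data. Files hold no reads, so no count test was run, and intervals from counting were not possible. Promoter means within 1 kb of a protein-coding or long non-coding RNA start of GENCODE 44. Named regions were the 8 largest consistent changes per class and direction, the 6 strongest gained or lost, up to 3 largest and every consistent member per list, regions past the interaction test, and CD22, with a few items not reported here; others are said to be picked later. Members and lists were chosen with earlier results of these data known. Same-numbered libraries were not taken as pairs. Other marks and NALM6 were not used here. Motifs were searched on both strands in 500 bp windows around summits with pysam 0.24.0.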

Additional observations from a re-analysis of the deposited data

Results flagged for a closer look

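Beyond the spread of the libraries, 2 regions responded differently in the 2 lines by a test of the difference itself (limma interaction term over 12 libraries, 7267 regions). At ENSG00000273287 the log2 change in Raji minus that in REH was -1.64 ± 0.24 (adjusted p = 0.0302), and at SLC6A6 it was -0.86 ± 0.13 (adjusted p = 0.0302). At an unadjusted p under 0.05 there were 479 regions. With 3 libraries a group, single libraries were not examined as outliers.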

How the results depend on the processing

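The count of 0 regions past the adjusted threshold held under each alternative that kept all 6 libraries, with lowest limma adjusted p from 0.0514 (maximum signal) to 0.617 (mapped reads as a covariate). Leaving out 1 library gave 0 to 1. Without untreated replicate 2 the 1 was a region on chromosome 5 (chr5:91310081-91316260) that was higher (1.54, limma adjusted p = 0.0232). Without bryostatin replicate 3 it was the region near CST7 (-1.96, limma adjusted p = 0.0368). The labels number the replicates of both groups, but same-numbered libraries correlated at 0.417, -0.250 and -0.308, so they share only a number; the replicate block gave 0 calls and 555 regions at an unadjusted p under 0.05, against 626. Counts of consistently higher, consistently lower and distal lower regions (83, 138 and 46) were 406, 510 and 111 in maximum signal alone. Lower and distal lower regions numbered 70 and 23 in mean signal per base. With no centring there were 10 higher and 72 lower regions, as the median over all regions then moved from -0.03 to 0.21. Regions called in at least 2 libraries of each group gave 348, 374 and 217, the regions above the median signal 40, 45 and 13 from fewer regions tested, and equal numbers of peaks 55 higher and 30 distal lower. Leaving out 1 library, which relaxes the demand on the rest, gave 178 to 333, 227 to 604 and 49 to 135. Gained and lost regions at equal numbers (50 and 34) were 30 gained among the 5000 strongest peaks, and 3 and 0 when the other group could have no peak at all; leaving out 1 library gave 66 to 321 and 44 to 132. With a common floor of relative signal, an alternative chosen after seeing the data as was the count of distal losses under each setting, they were 44 and 23. Among all peaks, gained regions (20) ran from 20 to 2964 and lost ones (0) from 0 to 19 without 1 library. The excess of treated over untreated top peaks near a start (1.03 percentage points within 1 kb) was 0.465 within 2 kb and 1.49 within 500 bp. In 1000 bp windows the AP-1 share was 14.7% of tested promoter and 28.5% of tested distal regions, 23.9% of distal lower and 41.7% of lost distal regions, so the low share of lost distal regions was seen in the narrow windows only.

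Of the log2 changes at 63 named regions, 1033 of the values under alternatives kept their direction and side of the threshold, 1 passed it and 45 changed sign. In maximum signal these were CR2 -0.42, CD22 -0.077, BLK -0.18, PRKCD 0.093, PRKCH -0.061, RASGRP3 -0.047, BATF -0.079, NFKBIZ -0.080, TRAF1 -0.13, DUSP10 -0.18, SPRED2 0.025, CXCR4 -0.13, B2M -0.10 and CD48 -0.14. In mean signal per base they were ANXA6 -0.74, NUP62 -0.32, OGDH -0.41, MGLL -0.0031, CR2 -0.63, VPREB3 0.0084, PRKCD 0.017, PRKCA 0.12, BATF -0.076, NFKBIZ -0.30, DUSP10 -0.22, SPRED1 0.13, SPRED2 0.20, B2M -0.26 and ULBP3 0.021. With no centring they were PRKCA 0.0026, SPRED1 0.0049 and SPRED2 0.044. With mapped reads as a covariate they were SWAP70 -0.090, CR2 -0.26, BLK -0.14, PRKCA 0.027, DGKD -0.17, BIRC3 -0.35, NFKBIZ -0.62, BCL6 -0.47, CXCR4 -0.064, RGS13 -0.53, CD48 -0.41 and TNFRSF10A -0.14. RGS13 ran from -0.022 without bryostatin replicate 1 to 0.88 without bryostatin replicate 3. Where a sign changed, the cause was not tested. Depth and treatment cannot be told apart in these libraries, since mapped reads did not overlap between the groups, and 3 against 3 libraries leave changes of the size of most listed genes under the test's reach.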

Other observations

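Consistent changes were spread over the genome. The median log2 change per chromosome ran from -0.06 on chromosome 17 to 0.01 on chromosome X, and each chromosome other than 18 and Y held at least 1 consistent region. Chromosome 12 had 5 higher and 1 lower of 484 tested regions, chromosome 6 had 8 and 4 of 485, and chromosome 17 had 9 and 15 of 581. Chromosome X had 3 higher and 0 lower of 131. Over all tested regions 0.891% were consistently higher and 1.48% consistently lower. No test was made of these counts.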
